A study of Homo sapiens with 15 samples.

Results

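The genes described are those that encode histones in the probe table of the Illumina HumanHT-12 v4 BeadChip. They were chosen by gene symbol alone: 86 symbols carried a histone prefix, 1 was a pseudogene and was left out, and 85 genes remained. Of these, 70 are replication-dependent cluster genes and 15 encode variant or replacement histones. A gene was followed if a probe of it reached a detection p under 0.05 on 3 or more of the 15 arrays. This held for 60 of the 85 (51 replication-dependent, 9 variant) among 12744 genes tested. The other 25 (19 replication-dependent, 6 variant) were not above background by that rule.

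The arrays measured total RNA of VCaP, an established human prostate cancer line in which a gene fusion drives the ETS transcription factor ERG. Each of 5 groups had 3 arrays. Cells were transfected with ERG siRNA 1 or ERG siRNA 2 and collected at 72 h, or received a non-targeting siRNA. Further cells were treated for 24 h with WP1130, an inhibitor of deubiquitinating enzymes, or received DMSO. All cells grew in medium with serum; the labels used here give neither the dose of WP1130 nor the times of both controls. Whether the 3 arrays of a group stand for different cultures is not stated, and a p-value therefore reflects the spread among arrays alone, which may be technical.

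Histones package DNA: a pair each of H2A, H2B, H3 and H4 forms the nucleosome core, and the linker histone H1 binds where DNA enters and leaves it. Replication-dependent genes lie in clusters, have no introns, are switched on for S phase, and yield mRNAs that normally end in a stem-loop bound by the protein SLBP in place of a poly(A) tail. Most variant genes, though not all, lie outside this programme and make polyadenylated mRNA throughout the cell cycle. They supply histones such as the replacement H3 and H2A.Z. A few cluster genes, H1-2, H2AC6, H2BC5, H2BC12 and H2BC21 among them, are also known to make polyadenylated mRNA. The labels name the manufacturer's standard labelling but no primer, so how fully mRNA without a poly(A) tail was measured was not tested. Several cluster genes are near-identical copies (H2AC18 and H2AC19; H3C13, H3C14 and H3C15; H4C14 and H4C15), and H3-5 is a retrocopy of H3-3B; their probes may each measure more than 1 gene, so values of single copies are uncertain.

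In DNA, the replication-dependent genes shared promoter letters that the choice by symbol did not use. RefSeq promoters of build GRCh38.p14, from 250 bases before to 50 after the gene's start, were matched to 54 of the 60 genes past detection; H2AC12, H3-5, H3C11, H3C12, H4C1 and H4C3 had none. The motif CCAAT, read on both strands, stood in 82.6% of 46 replication-dependent promoters, against 35.7% of all 27305 promoters of the table. TATAAA stood in 73.9%, against 12% of all promoters, and the octamer ATTTGCAT in 41.3%, against 1.8%. By family, 11 of 14 H2B, 7 of 11 H2A and 1 of 10 H3 promoters held the octamer. The 1 H3 promoter was that of H3C4, whose listed start is also that of the H2A gene H2AC7. CCAAT stood in 14 of 14 H2B, 11 of 11 H2A and 10 of 10 H3 promoters. Of 8 H4 promoters 0 held either one and 4 held TATAAA. Genes that lie head to head can share part of this window, so 1 match may count for both. Of 8 variant promoters, 7 held CCAAT, 4 held TATAAA and 1 held the octamer. A match describes these letters only.

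The 5 promoters shown belong to genes that the results turn on. H2BC21 and H2AC6 rose with the ERG siRNAs and with WP1130, H4C8 had one of the largest rises with WP1130, H2BC8 is an H2B gene that rose with WP1130, and H2BC9 fell with the ERG siRNAs. Each is the 250 bases before the gene's start, read along the gene's strand, with these 3 motifs, on either strand, in capitals. They lie at chr1:149886683-149886932 (minus strand), chr6:26123922-26124171 (plus), chr6:26285535-26285784 (minus), chr6:26216689-26216938 (minus) and chr6:26251364-26251613 (plus).
H2BC21: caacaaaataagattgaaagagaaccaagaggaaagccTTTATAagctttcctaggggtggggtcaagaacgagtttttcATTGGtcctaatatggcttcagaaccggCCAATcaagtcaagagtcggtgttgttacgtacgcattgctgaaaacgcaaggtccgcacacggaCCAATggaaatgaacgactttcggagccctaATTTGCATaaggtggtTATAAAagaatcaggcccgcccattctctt
H2AC6: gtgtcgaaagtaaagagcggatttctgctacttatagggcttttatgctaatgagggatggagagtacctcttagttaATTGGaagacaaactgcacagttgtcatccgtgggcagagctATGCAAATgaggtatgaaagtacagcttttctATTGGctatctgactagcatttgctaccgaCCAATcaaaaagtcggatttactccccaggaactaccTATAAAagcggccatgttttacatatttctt
H4C8: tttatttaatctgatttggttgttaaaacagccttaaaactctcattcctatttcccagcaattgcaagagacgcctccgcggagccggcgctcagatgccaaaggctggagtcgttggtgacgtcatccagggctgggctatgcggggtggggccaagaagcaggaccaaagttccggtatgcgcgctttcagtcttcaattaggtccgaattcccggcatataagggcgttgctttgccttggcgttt
H2BC8: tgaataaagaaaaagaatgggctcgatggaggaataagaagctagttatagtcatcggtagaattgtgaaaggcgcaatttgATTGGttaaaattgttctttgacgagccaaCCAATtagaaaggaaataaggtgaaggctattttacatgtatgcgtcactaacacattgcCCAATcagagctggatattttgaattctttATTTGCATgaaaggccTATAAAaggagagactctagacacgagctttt
H2BC9: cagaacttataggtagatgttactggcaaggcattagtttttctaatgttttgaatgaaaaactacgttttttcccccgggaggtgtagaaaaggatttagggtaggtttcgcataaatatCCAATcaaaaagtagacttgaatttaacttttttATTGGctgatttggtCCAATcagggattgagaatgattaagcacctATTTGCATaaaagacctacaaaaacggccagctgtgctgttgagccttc
No capitals overlap. H2BC21 and H2BC8 carry the octamer at -46 to -39 and -48 to -41, where -1 is the base before the start. They carry TATAAA at -30 to -25 and -32 to -27. H2BC9 carries its octamer at -49 to -42 and has no TATAAA in the window. In H2AC6 the octamer lies farther out, at -130 to -123, on the opposite strand. H4C8 holds none of the 3 motifs. Whether any motif goes with the changes in these or the other histone genes was not tested.

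As a check of the knockdown, ERG had log2 intensities of 5.0, 5.76 and 5.12 with ERG siRNA 1 and 5.57, 4.81 and 5.29 with ERG siRNA 2, against 6.13, 6.04 and 5.84 with the non-targeting siRNA. All 6 knockdown arrays lay below all 3 controls (change -0.74 ± 0.16, SE, limma adjusted p = 0.00383). ERG was also lower with WP1130, at 5.69, 5.73 and 5.87, against 6.30, 6.25 and 6.35 with DMSO (-0.54 ± 0.18, limma adjusted p = 0.0203). Mean raw intensity per array was 311.3 ± 5.21 with WP1130 (SD, n = 3), against 417.3 ± 19.4 with DMSO, and between 413 and 427 in the other groups. Because quantile normalization gives every array the same distribution, each WP1130 value is relative to the other genes of that array. Per array 18460 to 21220 probes were detected. Of 11 luminal epithelial markers 10 were measured, and the 11th, KLK3, was not above background. Of 6 fibroblast markers COL1A2, COL3A1 and PDGFRB, and of 6 blood markers PTPRC, CD3D and HBB, were not above background.

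**Figure D1:**
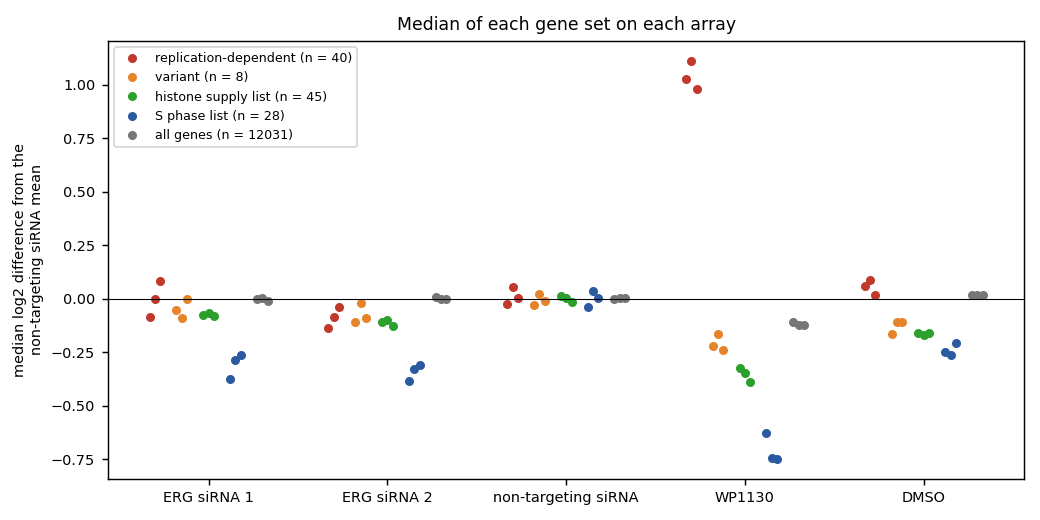
Each point is 1 array: the median, over the genes of a set, of the log2 difference from the mean of the 3 non-targeting siRNA arrays, for 40 replication-dependent and 8 variant histone genes detected on at least 3 of the 12 arrays without WP1130, the 45 genes of the histone supply list, 28 S phase genes and 12031 genes in all. The 3 WP1130 arrays stand at 0.98 to 1.11 for replication-dependent genes, while their S phase points are the lowest of the plot.

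Replication-dependent histone transcripts rose broadly with WP1130, while variant genes were split. Of the 40 replication-dependent genes detected on at least 3 of the 12 arrays without WP1130, 29 rose, 1 fell and 10 did not pass the threshold, an adjusted p of 0.05. Among all 12031 genes detected in that way 19.5% rose and 39.3% fell. The median change of the 40 was 0.84 on the log2 scale, against -0.15 for the 12031 genes. On single arrays the median of the 40 genes, relative to the non-targeting siRNA, was 1.03, 1.11 and 0.98 with WP1130, against 0.06, 0.09 and 0.02 with DMSO. The 8 variant genes detected in the same way had 3 rises, 3 falls and a median of -0.03. A further 11 replication-dependent genes and H1-7 passed detection through the WP1130 arrays, a filter that favours genes higher there. Of these, H2BC13 was not called (0.16). Its raw intensities were 115.8, 111.7 and 112.0 with WP1130, against 117.7, 123.0 and 122.4 with DMSO. Counting these 11 and H1-7 in, 39 of 51 replication-dependent and 4 of 9 variant genes rose. In this comparison 59.0% of all genes were called, 21.9% up and 37.1% down. In RNA from whole cultures, fewer cells making a transcript and less of it per cell cannot be told apart.

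H4C1, a core H4 gene and 1 of the 11 that passed through the WP1130 arrays, had a clear signal with WP1130 alone. Its log2 intensity was 7.51, 7.93 and 7.78 with WP1130, against 4.43, 4.41 and 4.39 with DMSO. It was not detected on any of the 12 arrays without WP1130, so its rise is a bound of at least 7.03-fold, the WP1130 mean set against the lowest signal that counted as detected on the DMSO arrays (adjusted p = 4.92e-14). Raw intensities, before any scaling, were 208, 237 and 235 with WP1130, against 107, 108 and 106 with DMSO.

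H4C8 encodes the same core histone from another part of the chromosome 6 cluster. It had log2 intensities of 9.08, 9.33 and 9.31 with WP1130, against 6.94, 6.97 and 6.93 with DMSO, so the groups were far apart. The change was 2.29 ± 0.10 (SE), or 4.90-fold (adjusted p = 5.19e-11). H2AC17, a core H2A gene, stood at 7.83, 8.30 and 8.19 with WP1130, against 5.65, 5.99 and 6.04 with DMSO. It rose by 2.21 ± 0.13 (adjusted p = 7.37e-10), with all treated arrays above all controls.

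H2AC18, an H2A gene of the chromosome 1 cluster, had 9.71, 9.94 and 9.50 with WP1130, against 7.57, 7.79 and 7.79 with DMSO. It rose by 2.0 ± 0.10 (adjusted p = 2.48e-10), and its other probe gave 2.01. The core H3 gene H3C1 had 6.69, 6.91 and 6.92 with WP1130, against 5.06, 4.81 and 4.81 with DMSO (change 1.95 ± 0.12, adjusted p = 2.82e-09). The H2B gene H2BC8 had 8.39, 8.62 and 8.43 with WP1130, against 6.60, 6.68 and 6.49 with DMSO (change 1.89 ± 0.08, adjusted p = 3.75e-11). For these 3 genes, too, no treated array lay within the range of the controls.

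The rises reached every core family. Of the genes detected without WP1130, 7 of 10 H2A (median 1.14), 8 of 11 H2B (0.66), 8 of 9 H3 (1.15) and 5 of 8 H4 genes (0.94) rose, and 1 of 2 linker genes, H1-2, rose by 0.32 ± 0.10 (adjusted p = 0.0105) but gave -0.38 with no scaling. Of the 33 replication-dependent genes detected on all 3 DMSO arrays 25 rose and 1 fell, where 20.3% of all such genes rose and 43.4% fell. By place, 21 of 30 genes on chromosome 6 rose, with a median of 0.65, and 8 of 10 on chromosome 1, with a median of 1.26; whether the chromosomes differ was not tested. H2AC13 was called higher (0.45 ± 0.13, adjusted p = 0.00774) although its WP1130 values of 5.40, 5.90 and 5.68 overlapped the DMSO values of 4.97, 5.42 and 5.23.

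H4C3 was the only replication-dependent gene that fell among the 51. Its log2 intensity was 13.47, 13.47 and 13.52 with WP1130, against 13.71, 13.70 and 13.71 with DMSO. The groups did not overlap, and the fall was small (-0.22 ± 0.06, adjusted p = 0.00794). The call was lost with median scaling (-0.10), a setting that shifts bright genes such as H4C3 more than dim ones. Raw intensities of H4C3, before any scaling, were 8768, 8676 and 8962 with WP1130, against 13040, 14197 and 13893 with DMSO. Genes that did not pass included H2BC9 (-0.22, 95% confidence interval -0.46 to 0.02), H4C12 (-0.10, -0.35 to 0.15), H2AC25 (-0.12, -0.33 to 0.10) and H1-1 (-0.08, -0.36 to 0.20). These intervals exclude changes of the size seen in H4C8 or H2AC17.

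**Figure D2:**
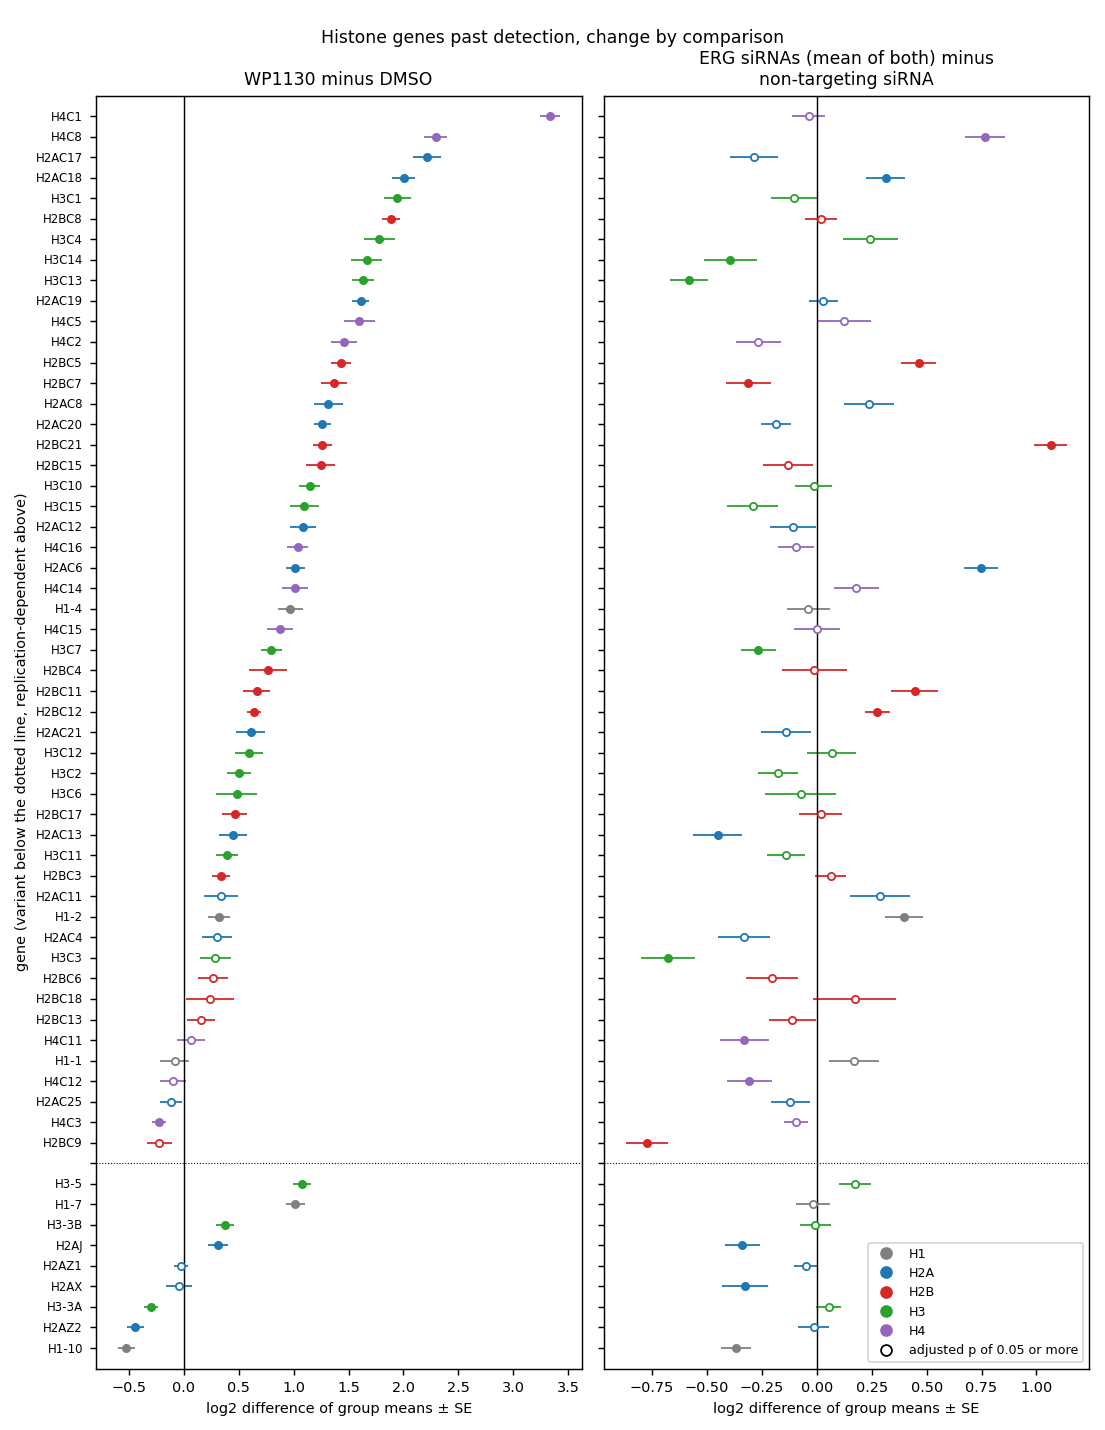
Log2 difference of group means ± SE for the 60 histone genes past detection, with WP1130 minus DMSO on the left and the mean of both ERG siRNAs minus the non-targeting siRNA on the right (3 arrays a group, scales differ). Colours mark the family and filled points an adjusted p under 0.05; with WP1130 most of the 51 replication-dependent genes lie right of 0, and with the ERG siRNAs they lie on both sides.

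Among variant genes, H3-5 and H3-3B were higher with WP1130 and H3-3A lower, although H3-3A and H3-3B encode the same replacement H3. H3-3A stood at 13.40, 13.47 and 13.34 with WP1130, against 13.63, 13.77 and 13.70 with DMSO, a fall without overlap (-0.30 ± 0.07, adjusted p = 0.00121). Its other probes gave -0.20 and -0.51. H3-3B stood at 9.92, 9.77 and 9.81 with WP1130, against 9.32, 9.60 and 9.44 with DMSO (0.38 ± 0.08, adjusted p = 0.000929). The call was lost with median scaling (-0.01) and turned into a fall with no scaling (-0.39). H3-5, a testis-enriched H3 gene, had 11.12, 11.17 and 11.13 with WP1130, against 10.03, 9.99 and 10.17 with DMSO (1.08 ± 0.08, adjusted p = 3.62e-08). A second H3-5 probe was detected on 0 arrays and gave 0.07. Whether the bright probe measured related H3 transcripts was not tested.

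H2AZ2, which encodes H2A.Z found at promoters, had 7.27, 7.36 and 7.22 with WP1130, against 7.82, 7.69 and 7.66 with DMSO. It fell by 0.44 ± 0.08 (adjusted p = 0.000206), whereas the change of its paralog H2AZ1 was -0.02 (95% confidence interval -0.16 to 0.11). The linker variant H1-10 had 7.83, 7.86 and 7.78 with WP1130, against 8.34, 8.39 and 8.32 with DMSO, a fall of similar size without overlap (-0.52 ± 0.08, adjusted p = 3.52e-05). H2AJ, an H2A variant known for its build-up in senescent cells, had 10.99, 11.16 and 10.93 with WP1130, against 10.65, 10.75 and 10.75 with DMSO (0.31 ± 0.09, adjusted p = 0.00834), and turned to -0.39 with no scaling. H2AX, whose protein is phosphorylated at DNA breaks, changed by -0.04 (95% confidence interval -0.30 to 0.21). The testis linker gene H1-7 was detected with WP1130 alone and rose at least 1.72-fold as scaled here. Its raw intensities were 128.8, 125.3 and 129.9 with WP1130, against 119.7, 120.1 and 113.9 with DMSO.

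Scaling shifted all genes in this comparison. Median scaling divided the log2 values of each array by a common factor, so its shift grew with the brightness of a gene. The median over all 12744 genes was -0.12 as processed here, -0.36 with median scaling and -0.65 with no scaling, beside the lower raw intensity of the WP1130 arrays. Of the 40 replication-dependent genes detected without WP1130, 25 rose and 3 fell with median scaling, when 10.4% of the 12031 genes rose and 60% fell. With no scaling 18 of the 40 rose and 7 fell, when 6.33% of the 12031 genes rose and 77.2% fell. The 8 variant genes detected in the same way had 1 rise and 3 falls with median scaling and 1 rise and 7 falls with no scaling. In raw intensity, 21 of the 29 replication-dependent genes called higher and detected without WP1130 had a higher mean with WP1130 than with DMSO, and for 17 every WP1130 array exceeded every DMSO array.

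The S phase list, with which replication-dependent histone genes are normally switched on, moved the other way with WP1130: 1 of 28 genes rose and 20 fell, with a median of -0.41. The replicative helicase genes MCM5 (-0.78 ± 0.08, adjusted p = 1.35e-06) and MCM3 (-0.74) fell, as did MCM10 (-0.76) and UHRF1 (-0.67), which copies DNA methylation. The 1 rise was SLBP, which binds the histone stem-loop. It had 9.78, 9.88 and 9.88 with WP1130, against 9.54, 9.50 and 9.65 with DMSO (0.28 ± 0.08, adjusted p = 0.00647). Its call was lost with median scaling (-0.11) and turned into a fall with no scaling (-0.49). Of 20 mitosis genes 4 rose, led by CDC20 (0.54) and AURKB (0.53), neither called with no scaling (-0.16 and -0.20), and 9 fell, led by CENPF (-0.62), with a median of -0.14. Over all genes 21.9% rose and 37.1% fell.

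Genes for histone transcription, mRNA processing, chaperones and deposition had 5 rises and 15 falls among 45 measured with WP1130, beside 21.9% up and 37.1% down over all genes, so that neither share was above that background. The median was -0.12, equal at this rounding to that of all genes. The chaperone subunit RBBP4 had 8.63, 8.44 and 8.53 with WP1130, against 9.55, 9.59 and 9.51 with DMSO (-1.02 ± 0.08, adjusted p = 1.81e-08). IPO4 (-0.79), an importer of H3 and H4, ATRX (-0.77), which helps deposit the replacement H3, and CHAF1A (-0.73), of the replication-coupled assembly factor, also fell. The largest rise was CDAN1, a binding partner of the H3 and H4 chaperone ASF1: it had 12.75, 12.86 and 12.76 with WP1130, against 11.72, 11.61 and 11.51 with DMSO (1.17 ± 0.09, adjusted p = 3.82e-08). HIRA, another depositor of the replacement H3, gave 0.36 (adjusted p = 0.0495), a call lost in 9 alternatives, and SUPT6H, a histone chaperone of transcription, gave 0.36, a call lost with no scaling (-0.20). The histone gene coactivator NPAT fell by 0.58 ± 0.19 (adjusted p = 0.0149) and HINFP, an H4 gene activator, fell by 0.32 ± 0.07 (adjusted p = 0.00161).

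**Figure D3:**
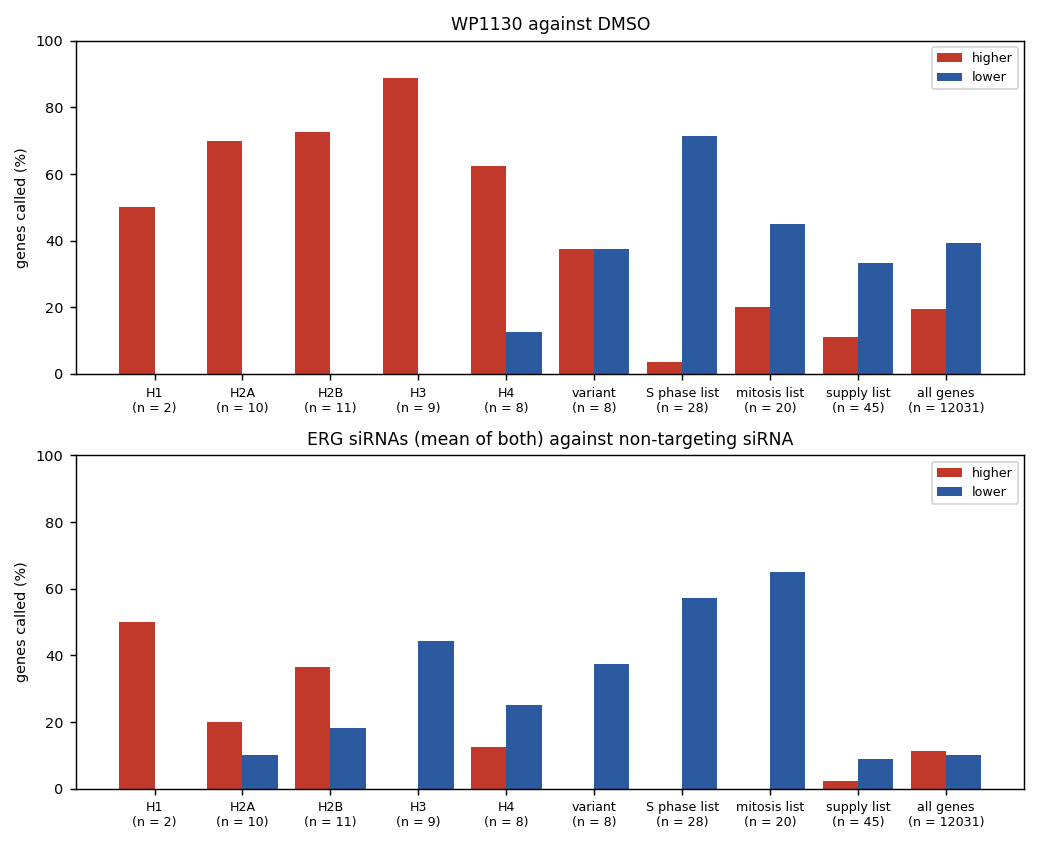
Percent of genes called higher or lower (adjusted p under 0.05) in each histone family, the variant genes, 3 gene lists and all genes, with WP1130 against DMSO above and the mean of both ERG siRNAs against the non-targeting siRNA below. Histone genes and all genes are those detected on at least 3 of the 12 arrays without WP1130; with WP1130 29 of 40 replication-dependent genes were higher while 20 of 28 S phase genes were lower.

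Markers of blood cells moved with WP1130 as well. Of the 3 measured, CD68 (1.71) and CD14 (0.93) rose and CD79A did not pass, and the summed linear intensity of the 3 was 1021 to 1121 with WP1130, against 426 to 433 with DMSO. PTPRC, the common leukocyte marker, was not above background. The summed fibroblast markers were 398 to 441 with WP1130, against 688 to 709 with DMSO, with LUM lower (-0.84), and luminal markers summed to 26130 to 26590 with WP1130, against 32660 to 33910 with DMSO, with 3 higher and 5 lower of 10. The part of these genes in the histone changes was not tested.

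The ERG siRNAs changed 20 of the 60 histone genes, in both directions, where 20.2% of all genes were called. Among 51 replication-dependent genes 8 rose and 9 fell, against 10.7% of all genes up and 9.58% down, with a median of -0.07. Among 9 variant genes 0 rose and 3 fell, with a median of -0.02. The rises were H2BC21, H4C8, H2AC6, H2BC5, H2BC11, H1-2, H2AC18 and H2BC12, of which 4 are H2B genes and 0 are H3 genes. The falls among replication-dependent genes were H2BC9, H3C3, H3C13, H2AC13, H3C14, H4C11, H2BC7, H4C12 and H3C7, of which 4 are H3 genes. Of these, H4C11, H2BC7, H4C12 and H3C7 had overlapping knockdown and control arrays. Without non-targeting siRNA replicate 2 the falls dropped to 4 and all calls to 13, and without ERG siRNA 1 replicate 1 or ERG siRNA 2 replicate 2 the falls were 5. The 3 variant falls became 1 without non-targeting siRNA replicate 2, 1 with median scaling and 0 with no scaling.

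H2BC21 was the histone gene that rose most with the knockdown. It had 7.28, 7.02 and 7.41 with ERG siRNA 1 and 7.27, 7.38 and 7.37 with ERG siRNA 2, against 6.20, 6.21 and 6.26 with the non-targeting siRNA. The 6 knockdown arrays lay far above the controls (1.06 ± 0.08, or 2.09-fold, adjusted p = 1.34e-07). H2AC6 had 7.38, 7.42 and 7.55 with ERG siRNA 1 and 7.56, 7.37 and 7.54 with ERG siRNA 2, against 6.70, 6.77 and 6.70 with the non-targeting siRNA (0.75 ± 0.08, adjusted p = 4.41e-06). H4C8 had 6.95, 6.94 and 7.30 with ERG siRNA 1 and 7.14, 7.24 and 7.22 with ERG siRNA 2, against 6.22, 6.53 and 6.35 with the non-targeting siRNA (0.77 ± 0.09, adjusted p = 2.33e-05). Neither H2AC6 nor H4C8 showed overlap between knockdown and control arrays.

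Smaller rises were those of H2BC5 (0.46 ± 0.08, adjusted p = 0.00074), H2BC11 (0.45 ± 0.11, adjusted p = 0.00741) and the linker gene H1-2 (0.40 ± 0.09, adjusted p = 0.00369). H2BC5 had 7.98, 7.84 and 8.09 with ERG siRNA 1 and 7.90, 7.88 and 7.96 with ERG siRNA 2, against 7.39, 7.46 and 7.58 with the non-targeting siRNA, with no overlap, and a second detected probe gave 1.01. With WP1130 these probes gave 1.43 and 2.28. The probes of H2BC12 disagreed: the brighter one gave 0.28 (adjusted p = 0.00253) and the other -0.04.

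H2BC9 fell most. It had 6.69, 7.03 and 6.92 with ERG siRNA 1 and 6.47, 6.51 and 6.58 with ERG siRNA 2, against 7.39, 7.56 and 7.47 with the non-targeting siRNA. Every knockdown array was below every control (-0.77 ± 0.10, adjusted p = 3.83e-05). The H3 gene H3C3 had 5.80, 6.26 and 5.92 with ERG siRNA 1 and 5.59, 5.76 and 5.46 with ERG siRNA 2, against 6.38, 6.74 and 6.31 with the non-targeting siRNA (-0.68 ± 0.12, adjusted p = 0.00107). The groups did not overlap, though the highest siRNA 1 array and the lowest control were close.

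H3C13 had 5.37, 5.57 and 5.41 with ERG siRNA 1 and 4.90, 5.15 and 5.14 with ERG siRNA 2, against 5.73, 5.81 and 5.97 with the non-targeting siRNA (-0.58 ± 0.09, adjusted p = 0.000214); its other detected probes gave -0.52 and -0.07. H3C14, its near-identical copy, was not detected with either ERG siRNA and was at least 1.10-fold lower than with the non-targeting siRNA (adjusted p = 0.0316). H2AC13 fell by 0.45 ± 0.11 (adjusted p = 0.0096), to 5.13, 4.90 and 4.92 with ERG siRNA 1 and 5.02, 5.06 and 5.21 with ERG siRNA 2, against 5.36, 5.58 and 5.53 with the non-targeting siRNA. No H3C13 or H2AC13 knockdown array reached the controls.

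The 3 variant genes that fell were H1-10, H2AJ and H2AX. H1-10 had 8.12, 8.11 and 8.23 with ERG siRNA 1 and 8.21, 7.97 and 8.15 with ERG siRNA 2, against 8.52, 8.59 and 8.39 with the non-targeting siRNA (-0.37 ± 0.07, adjusted p = 0.00115). H2AJ had 10.59, 10.54 and 10.58 with ERG siRNA 1 and 10.42, 10.46 and 10.52 with ERG siRNA 2, against 10.70, 11.08 and 10.78 with the non-targeting siRNA (-0.34 ± 0.08, adjusted p = 0.00664). For both the knockdown arrays lay below the controls. H2AX had 8.31, 8.19 and 7.96 with ERG siRNA 1 and 8.02, 8.17 and 8.24 with ERG siRNA 2, against 8.35, 8.43 and 8.65 with the non-targeting siRNA, close but without overlap (-0.33 ± 0.10, adjusted p = 0.0366). The other 6 variant genes had changes from -0.05 (H2AZ1) to 0.17 (H3-5).

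**Figure D4:**
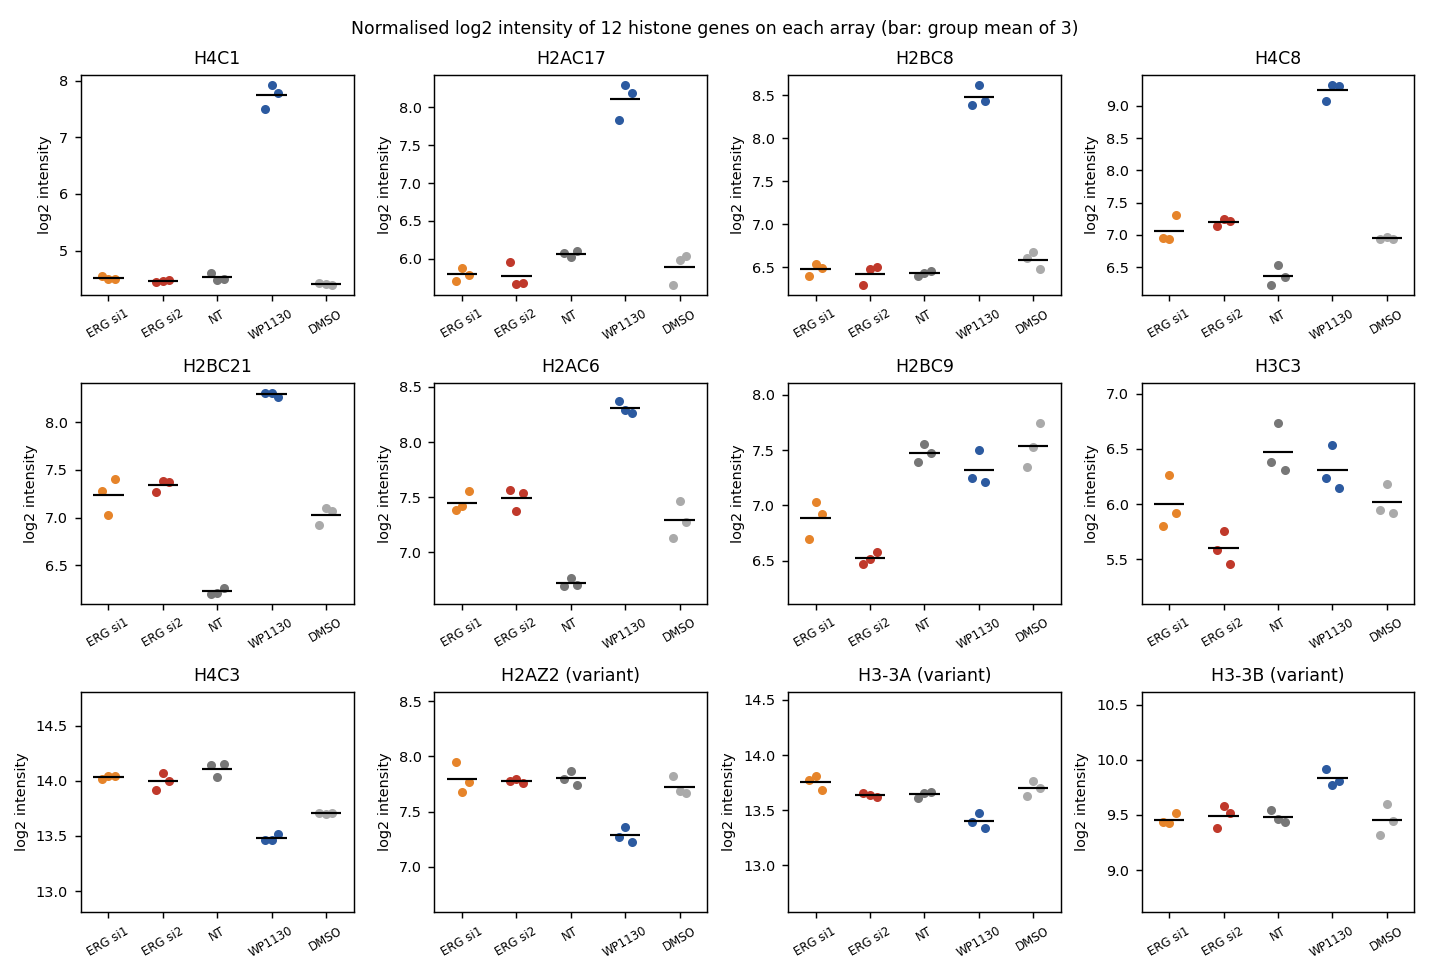
Normalised log2 intensity of 12 histone genes on each of the 15 arrays, with a bar at each group's mean of 3; ERG si1 and ERG si2 are the ERG siRNAs and NT is the non-targeting siRNA, and each panel has its own axis. H4C1 leaves background with WP1130 alone, H2BC21 and H2AC6 are lowest with the non-targeting siRNA, and H2BC9 is lowest with the ERG siRNAs.

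Alone, ERG siRNA 1 changed 11 of the 60 genes (6 up, 5 down), where 13% of all genes were called, 6.75% up and 6.25% down; without ERG siRNA 1 replicate 3 it changed 7. ERG siRNA 2 changed 19 (7 up, 12 down), where 18.6% were, 10% up and 8.59% down. Between the siRNAs 0 of 60 genes passed in limma (0.118% of all genes did, 0.0628% up and 0.0549% down), while 6 had an unadjusted p under 0.05, against 8.72% of all genes. H2BC21 changed by 1.01 with ERG siRNA 1 and 1.12 with ERG siRNA 2, H2BC9 by -0.59 and -0.95, and H3C3 by -0.48 and -0.88. Both siRNAs share the 3 non-targeting arrays. With both siRNAs averaged, 10.7% of all genes rose and 9.58% fell. Of 28 S phase genes 16 fell (median -0.33), led by CDT1 (-0.55) and UHRF1 (-0.52). Of 20 mitosis genes 13 fell (median -0.24), led by CCNB1 (-0.52), with 0 rises in either list. The supply list had 1 rise among 45, SUPT6H (0.40), and 4 falls, neither share above that of all genes. The falls were those of the H3 and H4 chaperone and helicase subunit MCM2 (-0.48), CHAF1A (-0.37), the centromeric H3 gene CENPA (-0.28) and ERI1 (-0.25), a nuclease that trims histone mRNA. Among markers, LUM rose (0.92), CD14 fell (-0.49) and 8 of 10 luminal genes rose; fibroblast markers summed to 501 to 589 with the ERG siRNAs, against 285 to 348 with the non-targeting siRNA, blood markers to 414 to 507, against 539 to 589, and luminal markers to 35250 to 41070, against 27810 to 28990. Their part in the histone changes was not tested.

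Part of the histone genes that rose with the ERG siRNAs also stood higher in the DMSO group when it was set against the non-targeting siRNA, a control that both comparisons share. DMSO against the non-targeting siRNA called 9 of the 60 genes, 6 up and 3 down, where 24.7% of all genes were called, 13.1% up and 11.6% down. H2BC21 had 6.92, 7.10 and 7.07 with DMSO, against 6.20, 6.21 and 6.26 with the non-targeting siRNA (0.81 ± 0.09, adjusted p = 1.16e-05), beside its 1.06 with the ERG siRNAs. No DMSO array overlapped the controls. H2AC6 changed by 0.57 with DMSO, beside 0.75 with the ERG siRNAs, H4C8 by 0.58 beside 0.77, H1-2 by 0.61 beside 0.40, H2BC11 by 0.42 beside 0.45, and H2BC12 by 0.34 beside 0.28.

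The remaining 3 were falls. H2AX had 7.72, 7.86 and 7.52 with DMSO, against 8.35, 8.43 and 8.65 with the non-targeting siRNA (-0.78 ± 0.12, adjusted p = 0.000241), H3C3 changed by -0.46 (adjusted p = 0.0284) and H4C3 by -0.40 (adjusted p = 0.000328). H2BC9, lower with the ERG siRNAs, was at 7.34, 7.53 and 7.75 with DMSO, overlapping the non-targeting values (change 0.07, which did not pass). In this comparison 13.1% of all genes were higher with DMSO and 11.6% lower. Lower were 20 of 20 mitosis genes (median -0.94), 13 of 28 S phase genes, with 1 higher (median -0.22), and 15 of 45 supply genes, with 0 higher. Between these groups the agent, the transfection and any difference in culture time cannot be told apart.

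The response to WP1130 was set against that to the ERG siRNAs by testing the difference of both changes. It was called for 44 of the 60 genes, where 50.7% of all genes were called. ERG itself fell in both comparisons, and its difference was not called (0.20, limma adjusted p = 0.514). The 60 include 12 that passed detection through the WP1130 arrays, a filter that favours genes higher there. Of the 40 replication-dependent genes detected without WP1130, 28 were called upward in this signed difference (WP1130 minus siRNAs) and 0 downward. Of the 12031 genes detected in that way 17.6% were called upward and 32.8% downward. An upward call means a higher signed change with WP1130, which need not be the larger in size. Over all 12744 genes the upward and downward shares were 19.8% and 31%. H3C13, which rose by 1.63 ± 0.10 with WP1130 and fell by 0.58 ± 0.09 with the siRNAs, differed by 2.21 ± 0.13 (adjusted p = 2.63e-09). H4C8 rose in both and differed by 1.53 ± 0.14 (adjusted p = 3.05e-07).

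For some of the genes that rose in both comparisons no difference was called; of these, H2BC11 lost its WP1130 call with no scaling (-0.014) and H1-2 turned into a fall (-0.38). H2BC21 differed by 0.20 (95% confidence interval -0.05 to 0.45), H2AC6 by 0.27 (0.02 to 0.51, adjusted p = 0.0658), H2BC11 by 0.22 (-0.13 to 0.56) and H1-2 by -0.07 (-0.35 to 0.20). H2BC5 did differ, by 0.97 ± 0.12 (adjusted p = 1.04e-05). Of the 9 variant genes, 4 were called higher and 2 lower in the difference, where 19.8% of all genes were called upward and 31% downward. The 9 include H1-7, which passed detection through the WP1130 arrays. H2AZ2 (-0.42, adjusted p = 0.0034) and H3-3A (-0.35, adjusted p = 0.0036) were the lower ones.

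Histone genes often lie head to head and share the stretch between their starts. Among the members with a promoter, 13 such pairs had starts under 1000 bases apart, and in 8 both genes were past detection. H2AC7 and H3C4 have the same listed start, 223 bases from that of H2BC7. The pair of H2BC7 and H3C4, both higher with WP1130, is therefore not a promoter separate from that of H2AC7 and H2BC7. With WP1130 both genes rose in 5 pairs and 1 of the pair in 3. H2BC13, paired with H2AC13 and not called, passed detection through the WP1130 arrays, a filter that favours genes higher there. Counted singly, 29 of the 40 replication-dependent genes detected without WP1130 rose. Of the 12031 genes detected in that way 19.5% rose. H2AC20 and H2BC21, whose starts lie 236 bases apart, each changed by 1.26 with WP1130. With the ERG siRNAs H2AC20 changed by -0.19, which did not pass, and H2BC21 rose by 1.06. H2AC6 and H2BC4, 246 bases apart, rose by 1.02 and 0.77 with WP1130; with the ERG siRNAs H2AC6 rose by 0.75 and H2BC4 changed by -0.01, which did not pass. H2AC17 and H2BC17, 240 bases apart, both rose with WP1130 but by 2.21 and 0.47. With the ERG siRNAs 1 pair, H2BC9 and H3C7, moved the same way, 5 pairs had 1 gene called and 2 had none. Over all genes 20.2% were called with the siRNAs.

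**Figure D5:**
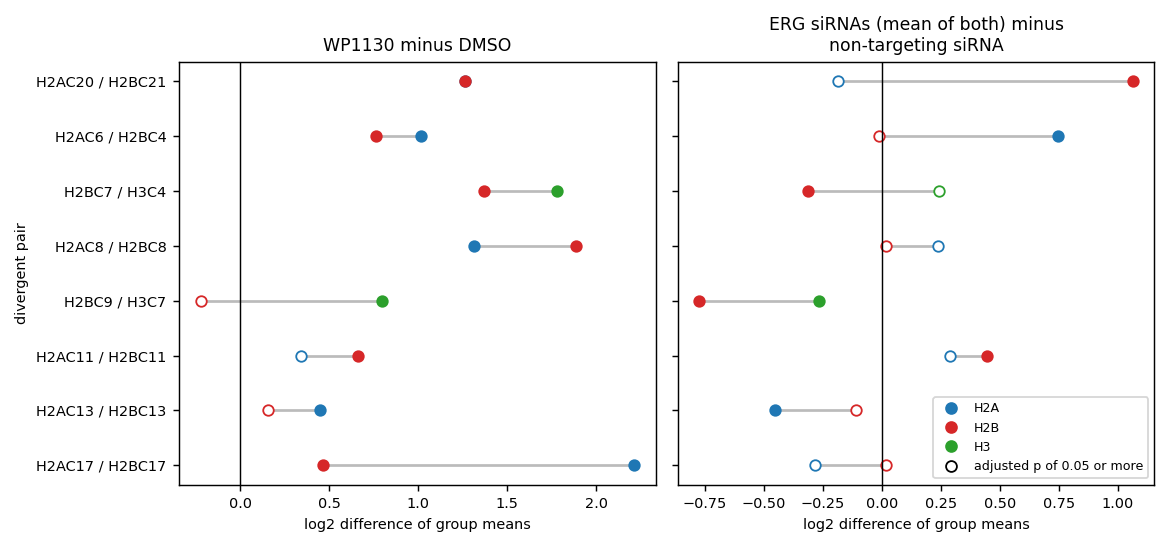
Log2 difference of group means of both genes in the 8 head-to-head pairs past detection, with WP1130 minus DMSO on the left and the mean of both ERG siRNAs minus the non-targeting siRNA on the right; colours mark the family, filled points an adjusted p under 0.05, and the points of H2AC20 and H2BC21 coincide on the left. With WP1130 both points are filled in 5 pairs, with the ERG siRNAs in 1.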

How the data were processed

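Total RNA of VCaP cells was measured on 15 arrays in 5 groups of 3, assigned by their treatment labels. Per the file headers, the deposited raw table holds for each probe an intensity (linear scale) and a detection p-value, set against negative control beads of that array. The submitters' processing notes list GenomeStudio with no version or role. A second table, the authors' processed values, holds intensity scaled to 1 common distribution by a method not given in the sources used here, and served as an alternative.

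The deposited intensities were taken through neqc (limma 3.58.1, R 4.3.3): normexp background correction with inferred negative controls, an offset of 16, quantile normalization and log2. Probes with a detection p under 0.05 on at least 3 arrays were kept (23281), and the probe with the highest mean stood for each of 12744 genes. Symbols came from GEO's platform annotation (30113 probes had 1 symbol, 8 several, 17201 were not listed). The 85 members had 98 probes; 9 members had more than 1. The 1 probe with several histone symbols was not used. A 5-group model was fitted with lmFit and eBayes, two-sided; p-values were adjusted by Benjamini-Hochberg across the 12744 genes and called under 0.05. Precision is limited by the number of arrays, with a median SE of 0.10 between 2 groups and 0.087 when both siRNAs were averaged. Where a probe was undetected on all arrays of a group, the change is a bound. The replicate numbers did not pair the arrays by the correlation of deviations (3 of 15 pairs above 0.1).

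Named in detail were, per comparison and class, up to 5 rises and 5 falls, every variant gene, and up to 4 genes each way of the S phase, mitosis and histone supply lists; NPAT, HINFP, H2BC8, H2BC12, H3C13 with WP1130, and the paired genes were named after their values were seen. The members and lists were chosen with earlier results of these data known. Promoters came from RefSeq. On simulated data (200 of 12744 genes changed) a log2 change of 0.5 was recovered at 80.6% in the averaged siRNA comparison and 68.7% in that of WP1130, and a change of 1 at 100% and 98.6%. In the data far more genes were called, 20.2% with the siRNAs and 59.0% with WP1130, so these rates need not hold there. Alternatives covered background correction, scaling, filter, probe rule, model, thresholds and leaving out each array.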

Additional observations from a re-analysis of the deposited data

How the results depend on the processing

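The number of histone genes called with WP1130 lay between 34 and 48 over all alternatives, against 47, and 30 of the 47 kept their call and direction in every alternative other than the thresholds. Leaving out 1 array gave 47 to 48 calls and 39 to 40 rises of replication-dependent genes. These counts and the 30 kept calls take in genes from the 12 that passed detection through the WP1130 arrays, a filter that favours genes higher there. With detection on at least 3 of the 12 arrays without WP1130, an alternative chosen after seeing the data, 29 rose, and 18 of these 40 genes rose with no scaling. The ERG siRNA result depended more on the settings. All calls (20) became 11 with no scaling, 13 at an adjusted p under 0.01 and 5 with at least 1.5-fold, and 13 to 19 when 1 array was left out. The 9 falls of replication-dependent genes became 5 with median scaling, 5 with no scaling, 4 at an adjusted p under 0.01, 2 with at least 1.5-fold and 4 to 8 without 1 array; the 8 rises became 3 with at least 1.5-fold and 7 to 8 without 1 array. For ERG siRNA 1 the 11 calls became 6 with no scaling, 7 at an adjusted p under 0.01, 4 with at least 1.5-fold and 7 to 11 without 1 array, lowest without ERG siRNA 1 replicate 3. For ERG siRNA 2 the 19 calls became 12, 6 and 14 to 16 under the last 3 of these. The 9 calls of DMSO against the non-targeting siRNA became 3 with at least 1.5-fold and 7 to 10 without 1 array, and the 44 calls of the difference 42 to 45. Across all alternatives other than the thresholds, 9 of the 20 ERG siRNA calls were kept, those of H1-2, H2AC6, H2BC5, H2BC9, H2BC11, H2BC21, H3C3, H3C13 and H4C8.

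With WP1130, calls whose value crossed 0 without passing the threshold were H3-3B (-0.011) and SLBP (-0.11) with median scaling, and H2BC11 (-0.014), H3C6 (-0.0097), SUPT6H (-0.20), AURKB (-0.20) and CDC20 (-0.16) with no scaling. With no scaling H1-2 (-0.38), H2AJ (-0.39), H3-3B (-0.39), SLBP (-0.49), CDK1 (-0.38) and NUSAP1 (-0.36) turned into called falls, and H4C11, not called otherwise, fell (-0.48). These settings move the median of all genes to -0.36 and -0.65 by their construction. The cause of the other changes was not tested. The replicate numbers share only a number: with the replicate block the calls were 18 for the ERG siRNAs, 15 for ERG siRNA 1, 19 for ERG siRNA 2, 48 for WP1130, 10 for DMSO and 43 for the difference, and 8 of 15 arrays correlated best with their own number. Dim probes limit the histone genes: 36 of 85 members were detected on all 15 arrays, and bounds stand in place of folds for others.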

Other observations

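The 25 histone genes not past detection were examined without the filter. With WP1130 1 of them was called higher, the H2A-like gene H2AP (0.41, adjusted p = 0.0068), and 0 were lower; the other 24 included 19 replication-dependent genes with changes from -0.21 (H1-5) to 0.18 (H2AC15). Without the filter 15.2% of 20046 genes rose with WP1130. Besides H4C1 and H1-7, bounds for genes undetected with DMSO were at least 2.05-fold for H2BC15, 1.55-fold for H2AC12, 1.35-fold for H1-4 and 1.17-fold for H2BC3. These bounds hold only after scaling, for genes that passed detection through the WP1130 arrays. Mean raw intensity of H2BC3 was lower with WP1130 (117.2) than with DMSO (121.9). It was 134.3 against 118.8 for H2BC15, 125.1 against 109.4 for H2AC12 and 120.9 against 104.9 for H1-4.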
